A study of Homo sapiens with 4 samples.

Results

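The genes described here carry glucose carbon through the cell: 35 genes for glucose uptake, glycolysis, lactate production and export, the pyruvate dehydrogenase kinases and the pentose phosphate pathway. They were chosen by name from these pathways, and each was found by its NCBI gene number among the 25702 genes counted in every library. The data are whole transcriptome sequencing (WTS) of K562, an established human leukemia cell line with erythroid features. The cells were transfected with the LeGO-iG2 plasmid carrying RUNX1::ERG, a fusion of 2 transcription factors, or with the empty LeGO-iG2 vector, and both plasmids also express green fluorescent protein. Each group had 2 libraries, no other treatment is named, and whether the transfected cells were sorted before RNA extraction is not given in the sources used here. The comparison asks which genes differ in expression between cells with the fusion and cells with the vector alone.

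Glycolysis splits glucose into pyruvate, with investment of ATP at hexokinase and phosphofructokinase and its return at phosphoglycerate kinase and pyruvate kinase. Lactate dehydrogenase turns pyruvate into lactate, which leaves the cell through monocarboxylate transporters, while the pyruvate dehydrogenase kinases (PDKs) switch off the complex that sends pyruvate into the mitochondria. The pentose phosphate pathway takes glucose-6-phosphate instead and yields NADPH and ribose. Most steps have several isozymes from different genes, and red blood cells, which lack mitochondria, depend on glycolysis and have their own pyruvate kinase from PKLR.

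The libraries held 59695387 to 82352144 counts, and between 66.7% and 68.9% of the counts from 1 to 10 were even, and whether both reads of a pair were counted is not given in the sources used here. If they were, the independent fragments are fewer than the counts. ERG was at 4 counts in each empty vector library and at 80443 and 27218 in RUNX1::ERG replicates 1 and 2, so the libraries bore out their labels, and the fusion level differed between the RUNX1::ERG replicates. The 10 erythroid markers, globins among them, were all present. They summed to 11980 and 12640 normalized CPM with the empty vector and to 14190 and 13100 with RUNX1::ERG. HBE1 had the most counts of the 10, at 398543 and 450893 against 709163 and 526057. HBZ (58181 and 77571 counts against 63471 and 44214) and TFRC (42691 and 89931 against 48095 and 54896) were not above both vector libraries in both RUNX1::ERG libraries. Nor were GATA1 (16252 and 18548 counts against 25481 and 18375) and KLF1 (11249 and 17509 against 17666 and 13653). The 8 megakaryocytic markers, of which 6 exceeded 10 counts and 1 was at 0 throughout, summed to 74.3 and 85 with the vector and to 491 and 429 with the fusion, and the 8 monocytic and granulocytic markers to 8.65 and 10.9 against 23.6 and 21.1. LYZ and CD14 carried the latter sum, while MPO (19 and 4 counts against 14 and 2) and ELANE (10 and 0 against 2 and 0) were not higher. The 6 lymphoid markers summed to 34.9 and 36.2 with the vector and to 22.6 and 25 with the fusion. CD3D had the most counts of the 6, at 1957 and 2446 against 1726 and 1693. The 6 fibroblast and epithelial markers summed to 734 and 955 with the vector and to 842 and 908 with the fusion. KRT8 had the most counts of these 6, and COL1A1 was at 249 and 255 counts against 1858 and 1406. EPCAM, KRT19 and COL1A2 were not above both vector libraries in both RUNX1::ERG libraries. The part of all these markers in the results below was not tested. Normalized CPM are counts scaled to a common library size (CPM) after correction by the TMM method. In bulk RNA, fewer cells of a type and less RNA per cell cannot be told apart.

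All 35 genes passed the filter on low counts, and 3 had an adjusted p under 0.05 (quasi-likelihood test of edgeR, Benjamini-Hochberg adjusted across the whole table). SLC16A3 and ENO2 were higher with RUNX1::ERG and PKLR was lower. These 3 are 8.57% of the 35 genes, against 4.79% of the 15394 genes tested, of which 3.64% were called higher and 1.15% lower. At an unadjusted p under 0.05 there were 10 of the 35 genes, or 28.6%, against 18% of all genes. The libraries of the 2 groups did not overlap in 19 genes, 12 higher and 7 lower, which is 54.3% against 47.2% of all genes tested (25.1% higher and 22.1% lower). The median log2 fold change of the 35 genes was 0.03, beside 0 for all genes tested. With 3 calls among 35 genes, the share called was not far from the background, and no direction was common to the list: 20 genes had values above 0 and 15 below.

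**Figure D1:**
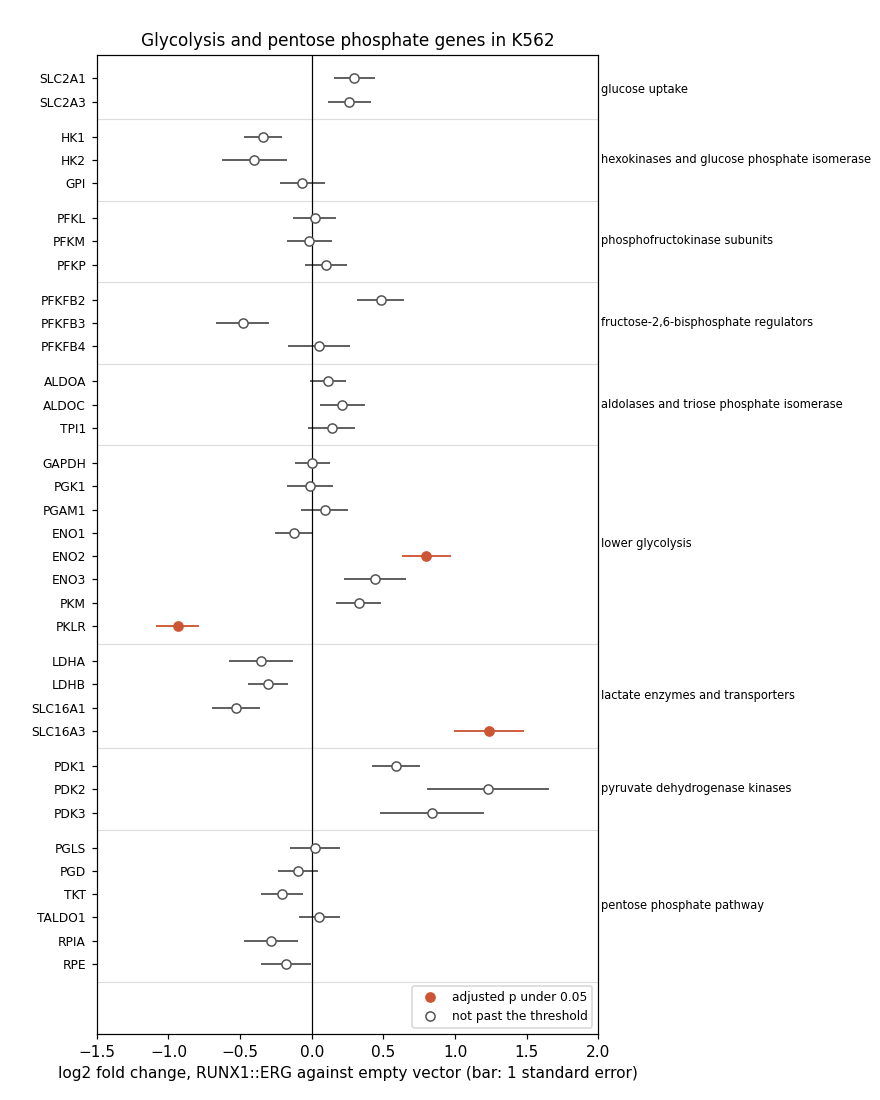
Log2 fold change of each of the 35 genes, RUNX1::ERG against empty vector (horizontal axis), with 1 standard error from edgeR, grouped by role. Filled points passed an adjusted p of 0.05: PKLR at -0.93, ENO2 at 0.8 and SLC16A3 at 1.24, while 17 of the 35 genes lay within 0.25 of 0.

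For the 3 genes past the threshold, the 250 bases before the transcription start are shown, because the comparison is of cells with and without a fused DNA-binding factor. They are RefSeq promoter windows on GRCh38.p14, read 5′ to 3′ on the gene's strand. Capitals mark every match, on either strand, to the ETS-type motifs CCGGAAG and AGGAAG, the Runt motif TGTGGT, the E-box CACGTG and the hypoxia core ACGTG, which lies inside the E-box.
PKLR, chr1:155301439-155301688, minus strand: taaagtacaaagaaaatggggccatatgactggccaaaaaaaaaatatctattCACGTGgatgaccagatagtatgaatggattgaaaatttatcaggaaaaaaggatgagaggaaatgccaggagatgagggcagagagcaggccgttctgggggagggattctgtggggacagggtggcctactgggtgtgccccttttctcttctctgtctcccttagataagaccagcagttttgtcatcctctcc
ENO2, chr12:6914330-6914579, plus strand: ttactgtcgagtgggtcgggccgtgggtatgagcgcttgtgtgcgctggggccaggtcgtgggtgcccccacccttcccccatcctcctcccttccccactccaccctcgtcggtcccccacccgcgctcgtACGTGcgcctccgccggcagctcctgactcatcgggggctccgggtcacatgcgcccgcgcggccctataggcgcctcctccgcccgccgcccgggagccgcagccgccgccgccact
SLC16A3, chr17:82228185-82228434, plus strand: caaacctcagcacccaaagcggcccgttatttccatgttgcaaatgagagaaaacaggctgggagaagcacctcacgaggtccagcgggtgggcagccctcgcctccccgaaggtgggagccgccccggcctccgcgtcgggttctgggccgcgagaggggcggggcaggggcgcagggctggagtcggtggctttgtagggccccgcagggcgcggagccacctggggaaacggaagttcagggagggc
The PKLR window held 1 E-box, the ENO2 window 1 hypoxia core outside an E-box, and the SLC16A3 window none of the 5 motifs. Windows were found for 32 of the 35 genes. The E-box was in 4 of these 32 (12.5%) and in 6.49% of the 27305 promoters of the table, and the hypoxia core was in 11 (34.4%) and in 18.7%. CCGGAAG was in 4 of the 32 windows (12.5%) and in 8.82% of all promoters, AGGAAG in 6 (18.8%) and 28.7%, and TGTGGT in 6 (18.8%) and 10.9%. A match is a run of letters and not a bound site, and these windows hold 1 start per gene.

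PKLR encodes the pyruvate kinase of liver and red cells, and lies on chromosome 1 of GRCh37 (155259084 to 155271229, NCBI gene 5313). It was at 229 and 230 normalized CPM in the empty vector libraries and at 124 and 116 in RUNX1::ERG replicates 1 and 2. Both libraries with the fusion lay well below both with the vector, and in each group the replicates were close. The means were 229 ± 0.33 and 120 ± 6.14 (SD, n = 2), 1.91-fold lower with RUNX1::ERG, with a log2 fold change of -0.93 (standard error, SE, 0.15, adjusted p = 0.006, edgeR's quasi-likelihood test). With each library left out in turn it ran from -0.99 to -0.9 and stayed past the threshold. PKLR overlaps HCN3 on the other strand, and HCN3 had a log2 fold change of -0.04.

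PKM, which gives the pyruvate kinase of most other tissues, was at 619 and 762 normalized CPM with the vector and at 791 and 943 with RUNX1::ERG. The groups did not overlap, but the gap was smaller than the spread between the replicates, and the log2 fold change of 0.33 (SE 0.16, adjusted p = 0.31, edgeR) did not pass. Per kilobase of transcript, PKLR made up 21.9% and 18.6% of the pyruvate kinase RNA in the empty vector libraries and 10.6% and 8.49% in the RUNX1::ERG libraries. Its share was 10.7 percentage points lower with the fusion, at 20.2 ± 2.35 against 9.57 ± 1.52 (SD, n = 2). An exact two-sided permutation test gave p = 0.333, the smallest that 2 libraries against 2 allow.

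SLC16A3 encodes a monocarboxylate transporter that exports lactate from strongly glycolytic cells, and lies on chromosome 17 of GRCh37 (80175810 to 80219005, NCBI gene 9123). Its level was 3.97 and 4.2 normalized CPM with the empty vector and 10 and 9.25 in RUNX1::ERG replicates 1 and 2. Both libraries with the fusion were above both with the vector. The means were 4.08 ± 0.16 and 9.63 ± 0.53 (SD, n = 2), 2.36-fold higher, with a log2 fold change of 1.24 (SE 0.24, adjusted p = 0.016, edgeR). Without RUNX1::ERG replicate 1 the value was 1.18 and the adjusted p 0.12. CSNK1D, which overlaps it on the other strand, was at 0.06.

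SLC16A1, the other lactate transporter of the list and the more abundant one, was at 244 and 286 normalized CPM with the vector and at 164 and 204 with RUNX1::ERG. All values with the fusion lay below those with the vector, but the log2 fold change of -0.53 (SE 0.17, adjusted p = 0.11, edgeR) did not pass. Without empty vector replicate 1 it was -0.64 with an adjusted p of 0.036, and without RUNX1::ERG replicate 1 it was -0.38. It also passed without the filter on low counts (-0.54, adjusted p = 0.03, edgeR). Per kilobase, SLC16A3 was 2.29% and 2.08% of the RNA of the pair with the vector and 8.11% and 6.15% with the fusion, a difference of 4.94 percentage points (exact two-sided permutation p = 0.333). SLC16A1 was the major transporter in all 4 libraries.

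ENO2 encodes the enolase first known from neurons, and lies on chromosome 12 of GRCh37 (7022909 to 7032861, NCBI gene 2026). It was at 24.1 and 26.4 normalized CPM with the vector and at 44.6 and 43.3 in RUNX1::ERG replicates 1 and 2. The groups were clear of each other and the replicates close. The means were 25.2 ± 1.58 and 43.9 ± 0.89 (SD, n = 2), 1.74-fold higher, with a log2 fold change of 0.8 (SE 0.17, adjusted p = 0.026, edgeR). Without RUNX1::ERG replicate 1 it was 0.78 (adjusted p = 0.14) and without replicate 2 it was 0.81 (adjusted p = 0.052). LRRC23, which overlaps ENO2 on the same strand, was at -0.07.

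ENO1, the common enolase, was at 2409 and 2928 normalized CPM with the vector and at 2348 and 2555 with the fusion, and these ranges overlapped. Its log2 fold change was -0.12 (SE 0.13). ENO3, the muscle enolase, had values of 15 and 13 against 21.7 and 16.3, and a log2 fold change of 0.44 that did not pass (adjusted p = 0.32, edgeR). Even after its rise, ENO2 was a small part of enolase RNA, 0.77% and 0.69% per kilobase with the vector and 1.44% and 1.29% with the fusion.

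The 3 genes past the threshold were picked by a test that favours close replicates. Their closeness in the RUNX1::ERG replicates, with 80443 and 27218 counts of ERG, is in part a result of that choice. Whether the genes follow the fusion level was not tested. From replicate 1 to replicate 2 the log2 difference was -0.1 for PKLR, -0.04 for ENO2 and -0.11 for SLC16A3.

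**Figure D2:**
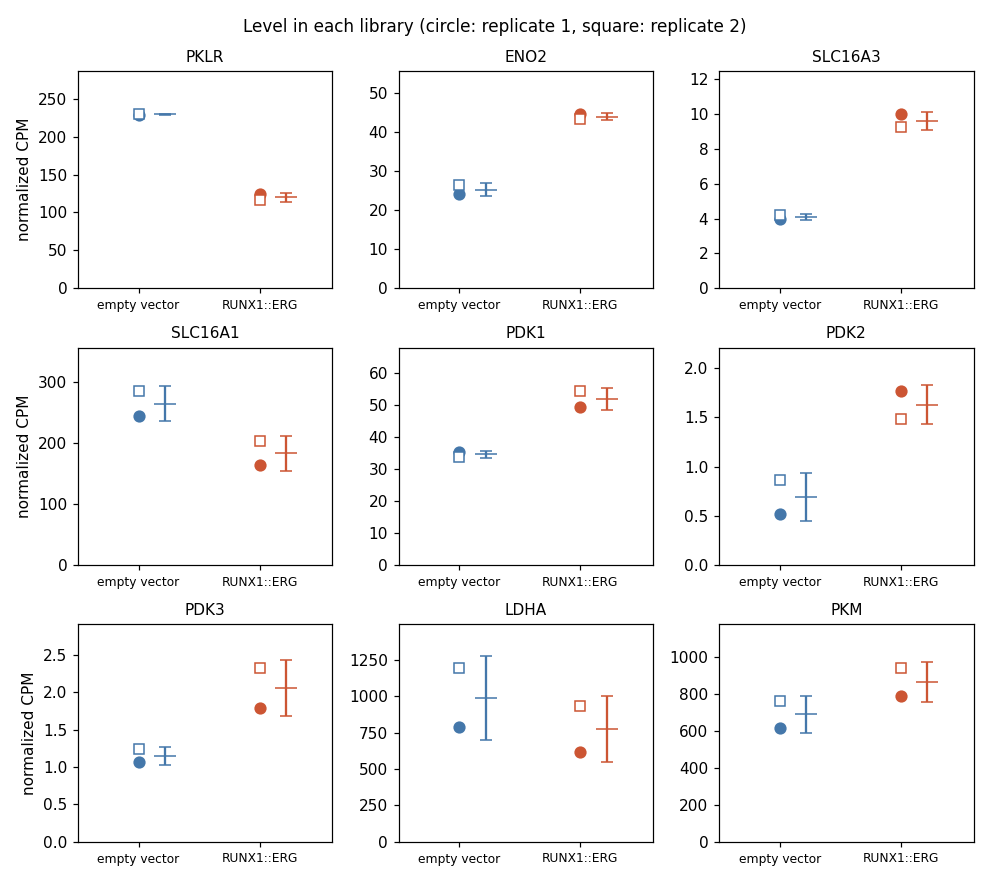
Normalized CPM in each library (vertical axis, from 0) for 9 genes, with the mean and SD of each group beside the points; filled circles are replicate 1 and open squares replicate 2. PKLR, ENO2 and SLC16A3 separate with close replicates, while LDHA, at 786 and 1196 with the vector and 615 and 935 with the fusion, spreads more within groups than between them.

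The PDKs phosphorylate and inhibit pyruvate dehydrogenase, and all 3 in the list had higher levels in each library with the fusion than in either with the vector alone, as did 25.1% of all genes tested, and none passed the adjusted threshold. PDK1 was at 35.3 and 33.7 normalized CPM with the vector and at 49.3 and 54.3 with the fusion, a log2 fold change of 0.59 (SE 0.17, adjusted p = 0.077, edgeR). It passed with the DESeq2 Wald test (adjusted p = 0.033) and without the filter on low counts (adjusted p = 0.049). PDK2 was at 0.52 and 0.87 against 1.77 and 1.49, a log2 fold change of 1.23 (SE 0.43, adjusted p = 0.15, edgeR), and it was called without empty vector replicate 2, at 1.66.
PDK3 was at 1.06 and 1.23 against 1.79 and 2.32, a log2 fold change of 0.84 (SE 0.37, adjusted p = 0.26, edgeR). PDK2 and PDK3 never reached more than 149 and 167 counts in a library, so PDK1 was the kinase with most reads. PDK4, the other member of the family, was at no more than 0.5 normalized CPM in any library. Of 12 genes for pyruvate entry and the pyruvate dehydrogenase complex, PDK4 among them, none was called by edgeR, and 2 had an unadjusted p under 0.05, a share near the 18% of all genes tested. These were MPC2, a subunit of the mitochondrial pyruvate carrier, at a log2 fold change of 0.43, and PC, the pyruvate carboxylase, at 0.41. By the DESeq2 Wald test their adjusted p-values were 0.17 and 0.22.

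At the entry of the pathway, the glucose transporters SLC2A1 and SLC2A3 were higher in both RUNX1::ERG libraries, without passing the threshold. SLC2A1 was at 349 and 379 normalized CPM with the vector and at 469 and 425 with the fusion, a log2 fold change of 0.3 (adjusted p = 0.32, edgeR). SLC2A3, at 0.26, shares near-identical sequence with SLC2A14, so its counts are less certain.
HK1, the main hexokinase here and that of red cells, was at 1070 and 1112 normalized CPM with the vector and at 817 and 907 with the fusion, with no overlap, a log2 fold change of -0.34 (SE 0.13, adjusted p = 0.2, edgeR). HK2 overlapped between groups, at 86.5 and 144 against 79.1 and 95.4, and its log2 fold change of -0.4 became 0.01 without empty vector replicate 2 and -0.73, past the threshold, without empty vector replicate 1. Per kilobase, HK1 was between 92.4% and 95.1% of the RNA of the 2 hexokinases in every library. GPI, which turns glucose-6-phosphate into fructose-6-phosphate, was at -0.07.

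The phosphofructokinase subunits, which form the committed step, had small fold changes, none past the threshold. PFKP, the most abundant by counts, was at 223 and 230 normalized CPM with the vector and at 246 and 238 with the fusion. The log2 fold changes of PFKP, PFKL and PFKM were 0.1, 0.02 and -0.02 with standard errors of 0.15, 0.15 and 0.16.
The PFKFB enzymes set the level of fructose-2,6-bisphosphate, the activator of phosphofructokinase, and here their values lay on both sides of 0. PFKFB2 was at 84.2 and 70.2 normalized CPM with the vector and at 104 and 112 with the fusion, a log2 fold change of 0.48 (SE 0.16, adjusted p = 0.14, edgeR). PFKFB3 was at 34.2 and 42.2 against 26.7 and 28, a log2 fold change of -0.48 (SE 0.18, adjusted p = 0.19, edgeR). PFKFB4 overlapped, at 0.05. Neither PFKFB2 nor PFKFB3 passed the threshold, though in both the groups did not overlap. By length, PFKFB2 was 44.9% and 34.3% of the RNA of the 3 genes with the vector and 52.2% and 49.7% with the fusion (exact two-sided permutation p = 0.333).

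**Figure D3:**
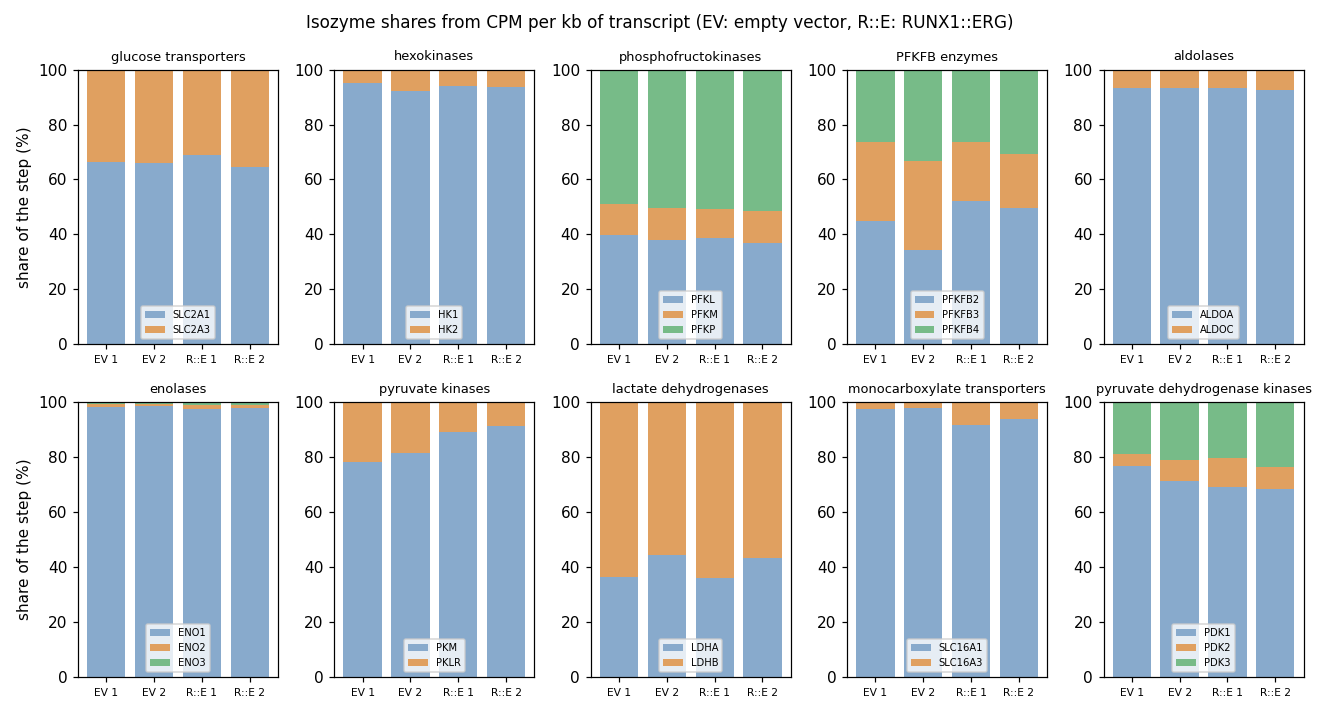
Share of each isozyme within its step (vertical axis, percent), from normalized CPM per kilobase of the canonical transcript, in each of the 4 libraries. PKLR takes 18.6% to 21.9% of pyruvate kinase RNA in the empty vector libraries and 8.49% to 10.6% in the RUNX1::ERG libraries, while phosphofructokinases, aldolases and hexokinases keep their make-up within a few points.

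The abundant enzymes from aldolase to phosphoglycerate mutase had fold changes within the spread between replicates. GAPDH was at 2508 and 2877 normalized CPM with the vector and at 2665 and 2738 with the fusion, and ALDOA at 1753 and 2014 against 1989 and 2084. The log2 fold changes of ALDOA, TPI1, GAPDH, PGK1 and PGAM1 ran from -0.01 for PGK1 to 0.14 for TPI1, and GAPDH, at 0.01 with a standard error of 0.12, changed sign with DESeq2 size factors (-0.008) and kept it with library totals alone (0.047). ALDOC, the aldolase of brain, was at 0.21 and did not overlap, with an adjusted p of 0.55 (edgeR). Summed over the 35 genes, the level was 14991 and 17587 normalized CPM with the vector and 15089 and 16491 with the fusion, and an exact two-sided permutation test gave p = 1. The genes took between 1.51% and 1.69% of all counts, of which GAPDH, ENO1, ALDOA and HK1 made up between 50.2% and 51.8%. Per kilobase of transcript, GAPDH had the highest mean level over the 4 libraries (2099 normalized CPM per kb), followed by ENO1 (1437), ALDOA (1195) and LDHB (577), and PDK2 had the lowest (0.34). GAPDH has 65 pseudogenes that carry its name in the annotation, PGAM1 has 13 and LDHA has 6, so reads from these genes can be split or lost in counting.

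Lactate dehydrogenase RNA comes from LDHA and LDHB, whose subunits mix in the enzyme. LDHA was at 786 and 1196 normalized CPM with the vector and at 615 and 935 with the fusion. The groups overlapped, with replicate 2 higher in each, and the log2 fold change of -0.36 (SE 0.23, adjusted p = 0.47, edgeR) was -0.63 and called without empty vector replicate 1 and -0.02 without empty vector replicate 2. LDHB was at 794 and 869 against 637 and 710, with no overlap, a log2 fold change of -0.3 (SE 0.14, adjusted p = 0.28, edgeR). The shares of the pair overlapped between groups. LDHA was 36.6% and 44.5% of the pair with the vector and 36% and 43.4% with RUNX1::ERG. These shares use transcript length, and by coding length LDHA averaged 54% and 53.1%.

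In the pentose phosphate pathway none of the 6 genes was called by edgeR or by DESeq2, and none had an unadjusted p under 0.05. With 4.79% of all genes called and 18% under the unadjusted threshold, 6 genes are too few to set these counts apart from the background. PGD, the NADPH-forming step after the lactonase PGLS, was at 444 and 482 normalized CPM with the vector and at 417 and 450 with the fusion. TKT, the transketolase, was at 417 and 468 against 376 and 392 and did not overlap, with a log2 fold change of -0.21 (adjusted p = 0.52, edgeR). PGD, PGLS and TALDO1 were at -0.1, 0.03 and 0.05, and RPIA and RPE, which interconvert the pentose phosphates, at -0.28 and -0.18.

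Replicate 2 was the higher library for most of the 35 genes in both groups. In the empty vector group 30 were higher in replicate 2 than in replicate 1, or 85.7%, against 47.5% of all genes tested. In the RUNX1::ERG group 26 were higher in replicate 2, or 74.3%, against 49.6%. The genes share libraries, so each of these counts compares 1 pair of libraries. LDHA differed by 0.61 and 0.6 on the log2 scale between the replicates of the 2 groups, and HK2 by 0.74 and 0.27. The genes past the threshold were among those with small differences, at most 0.13 in either group, and the test favours such genes.

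**Figure D4:**
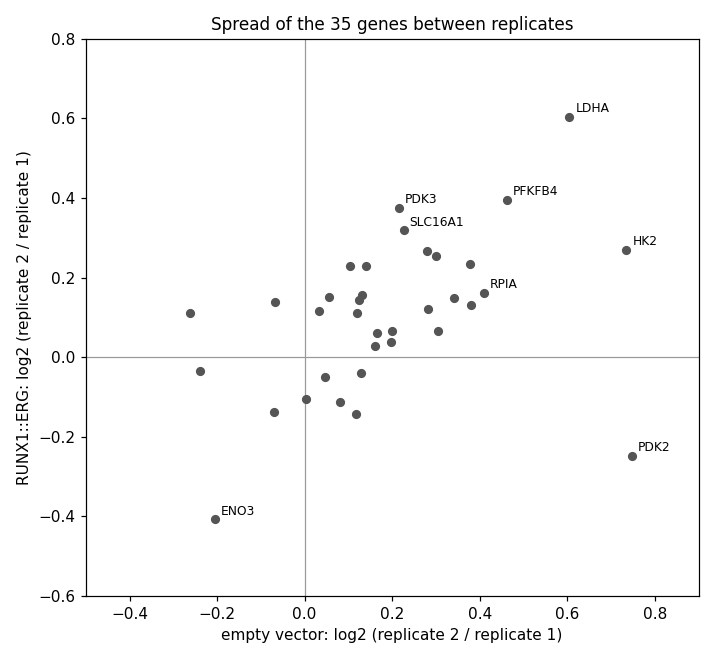
Each point is 1 of the 35 genes, placed by the log2 ratio of replicate 2 to replicate 1 in the empty vector group (horizontal axis) and in the RUNX1::ERG group (vertical axis). There are 24 genes above 0 on both axes, LDHA among them at 0.61 and 0.6, while PDK2 is at 0.75 and -0.25.

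Further genes around the pathway were taken from lists by function, 94 genes of which 76 passed the filter on low counts. Of these, 7 were called, or 9.21% against 4.79% of all genes tested, 6 higher and 1 lower with RUNX1::ERG. A gene at 0 with the vector passes the filter only if it is present with the fusion. SLC2A5, a fructose transporter, was such a gene, with 0 counts in both empty vector libraries and 48 and 18 in RUNX1::ERG replicates 1 and 2. Set against 3 counts per library, it was at least 8.23-fold higher (adjusted p = 0.015, edgeR). The bound uses the mean of the RUNX1::ERG libraries, at 0.57 and 0.25 normalized CPM, and would be lower from replicate 2 alone, or if both reads of a pair were counted.
TKTL1, a relative of transketolase, was at 1.34 and 0.95 normalized CPM with the vector and at 5.49 and 3.02 with the fusion, a log2 fold change of 1.89 (SE 0.39, adjusted p = 0.02, edgeR). GBE1, the glycogen branching enzyme, was at 27.7 and 37.5 against 56.2 and 68.8, a log2 fold change of 0.94 (SE 0.2, adjusted p = 0.024, edgeR). GBE1 was the 1 gene called of 13 tested for glycogen and gluconeogenesis. MYC, a transcription factor known to drive glycolytic genes, was the gene called lower, with 301 and 289 normalized CPM against 134 and 140 and a log2 fold change of -1.11 (SE 0.15, adjusted p = 0.002, edgeR). SLC2A5 and TKTL1 lost their calls without RUNX1::ERG replicate 1 (7.09 and 1.4 on the fitted log2 scale), and GBE1 without replicate 2 (0.77).

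Of 20 hypoxia response genes outside glycolysis, 19 were tested, and edgeR called 3 higher and none lower. Among all genes tested, 3.64% were called higher and 1.15% lower. An unadjusted p under 0.05 was reached by 7 of the 19, against 18% of all genes tested. The median log2 fold change of the 19 was 0.19. EPAS1, which encodes a hypoxia-inducible factor, was at 18.3 and 18.2 normalized CPM with the vector and at 31.8 and 35.3 with the fusion, a log2 fold change of 0.88 (SE 0.18, adjusted p = 0.021, edgeR). NDRG1 was at 7.46 and 7.52 against 15.8 and 15.8, at 1.08 (adjusted p = 0.016, edgeR), and BHLHE40, a transcriptional repressor, at 99.4 and 102 against 212 and 166, at 0.91 (adjusted p = 0.013, edgeR). All 3 had no overlap between groups, and all 3 lost their calls without RUNX1::ERG replicate 1, at 0.95, 1.08 and 0.72. EPAS1 also lost its call without replicate 2, at 0.79. The other members went in both directions. Of the 19 tested, 12 had values above 0 and 7 below. The groups did not overlap in 9 genes higher and 2 lower, beside 25.1% and 22.1% of all genes tested. ANKRD37 was at 1.115 (adjusted p = 0.081), P4HA1 at 0.62 (adjusted p = 0.18) and ERO1A at -0.605 (adjusted p = 0.078), all by edgeR. HIF1A was at 0.17, VEGFA at -0.01 and BNIP3 at -0.09, none past the threshold, and DDIT4 was at -2.17 (adjusted p = 0.099, edgeR). DDIT4 was at 888 and 108 normalized CPM with the vector and at 134 and 87 with the fusion, so the groups overlapped, and its log2 fold change ran from -3.01 to 0.02 with a library left out.

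**Figure D5:**
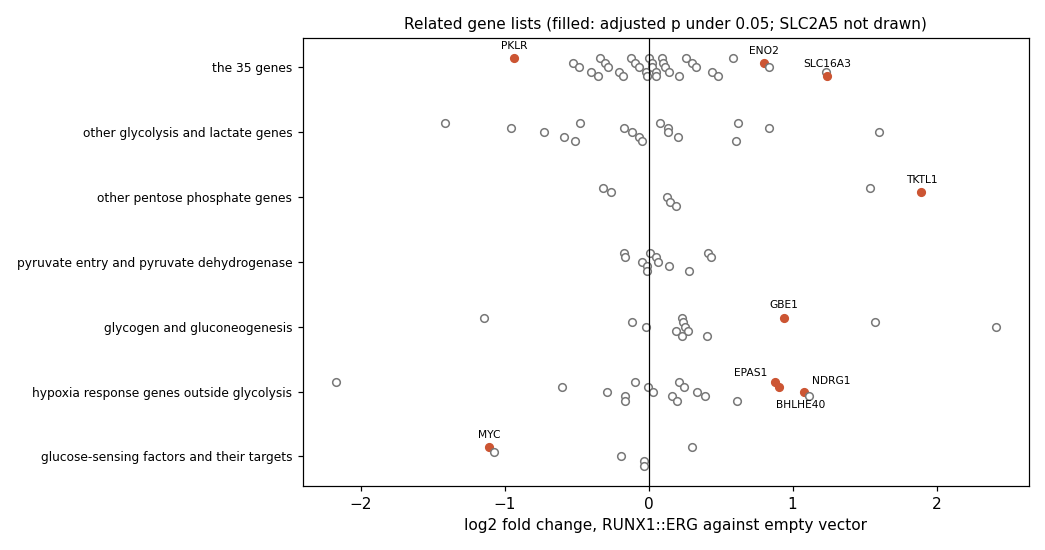
Log2 fold change, RUNX1::ERG against empty vector (horizontal axis), of each tested gene in the 35 and in the 6 related lists; filled points passed an adjusted p of 0.05 by edgeR. Named points are the 3 genes of the 35 and 6 of the 7 called in the lists, with MYC on the lower side; SLC2A5, at 0 with the vector, is not drawn.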

How the data were processed

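WTS of K562 cells was deposited as 4 files of raw counts per gene, which the authors made from paired-end reads of poly(A)-enriched RNA. The submitters' processing notes name hg19, HISAT2 2.2.1 and featureCounts 2.0.1; the gene annotation and strand setting are not given in the sources used here, so overlapping and near-identical genes are uncertain. Gene numbers were joined to RefSeq symbols (92.2% matched). Positions and transcript lengths are those of GENCODE v44lift37 (GRCh37). In R 4.3.3, edgeR 4.0.16 scaled the libraries by TMM, dropped genes of low count with filterByExpr, which left 15394, and tested by quasi-likelihood. P-values were adjusted by Benjamini-Hochberg and the threshold was 0.05. Standard errors are the log2 fold change divided by the square root of F. The procedure was tested on simulated data.

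DESeq2 1.42.0, limma 3.58.1 voom, other scalings and filters, halved counts, a replicate block and leaving out each library were the alternatives; shares by coding length were added after the data were seen. Values per library are given for genes past the threshold, those that differ by 0.5 or more on the log2 scale without overlap, and the most counted isozyme of each step; further genes were added after their values were seen. The genes and lists were chosen with earlier results of these data known. The authors call the libraries of each group biological replicates. Whether these were separate cultures is not given in the sources used here, so p-values measure the spread between these libraries. A count of 0 allows 3 counts, 0.0364 to 0.0503 CPM, for counting error only.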

Additional observations from a re-analysis of the deposited data

How the results depend on the processing

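PKLR kept its direction and its call under all 12 alternatives, SLC16A3 under all except the fit without RUNX1::ERG replicate 1, and ENO2 under all except the fits without RUNX1::ERG replicate 1 or 2. A fit without 1 library leaves a group with 1 library that is assumed to vary like the other group. The number of the 35 genes called was 3 in the main comparison, 5 without the filter on low counts (PDK1 and SLC16A1 added), 9 with the replicate block and from 1 to 6 with a library left out. The genes of the related lists called went from 7 to 14 without the filter and to 14 with the block, and from 3 to 13 with a library left out. Over all genes the number called, 737, became 1500 without the filter, 1204 with the DESeq2 Wald test and 1733 with the block, and 286 to 1336 with a library left out. Of these, the number higher (560) became 962 without the filter, 1082 with the block and 228 to 922 with a library left out, and the number lower (177) became 103 with library totals alone, 538 without the filter, 403 with the DESeq2 Wald test, 651 with the block and 58 to 602 with a library left out. Over all genes tested, the share called was 4.79% in the main comparison, 7.38% without the filter and 11.3% with the block. The added calls without the filter and with the block were thus not confined to the 35 genes. The cause of these changes in number was not tested.

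The block also called HK1, LDHA, PDK1, PFKFB2, PKM and SLC16A1. The deviations of same-numbered libraries from their group means correlated over genes with r = 0.27, but none of the sources ties a replicate number to a batch, and the libraries were left unpaired.

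Genes near 0 changed sign. GAPDH was at -0.008 with DESeq2 size factors, -0.007 without the filter and -0.009 with the DESeq2 Wald test, and PFKM and PGK1 were at 0.024 and 0.032 with library totals alone. With a library left out, values ran from -0.727 to 0.011 for HK2, -0.232 to 0.112 for GPI, -0.05 to 0.074 for PFKL, -0.09 to 0.04 for PFKM, -0.178 to 0.298 for PFKFB4, -0.042 to 0.34 for TPI1, -0.095 to 0.106 for GAPDH, -0.166 to 0.134 for PGK1, -0.089 to 0.293 for PGAM1, -0.26 to 0.024 for ENO1, -0.091 to 0.145 for PGLS and -0.03 to 0.134 for TALDO1. The median of the 35 genes ran from -0.04 to 0.12. By coding length the ENO2 share of enolase RNA was 0.81 percentage points higher with RUNX1::ERG, against 0.64 by transcript length.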
